A study of Bos taurus with 9 samples.

Results

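The ERBB receptors, with the adaptor, feedback and shedding genes that act directly on them, comprise 10 of the 20679 genes in the count and TPM tables. They were chosen by name as 4 receptors (EGFR, ERBB2, ERBB3 and ERBB4), an adaptor (GRB2), a ubiquitin ligase (CBL), 2 feedback inhibitors (ERRFI1 and LRIG1) and 2 sheddases (ADAM17 and ADAM10). All 10 symbols were found. The study asked how EGF and type I collagen shape gene expression of bovine uterine gland fragments, pieces of the tubular epithelium of the endometrium, in three-dimensional culture. Fragments came from cattle uteri obtained after slaughter at a stage with a corpus luteum, and were embedded in growth factor-reduced Matrigel, a basement membrane gel. RNA was sequenced on day 5 from 9 libraries in 3 groups of 3. CYST fragments received no EGF and closed into cysts. MAT fragments received EGF in Matrigel alone and formed tubular, gland-like structures. MAT + COL fragments received EGF in Matrigel mixed with type I collagen. Every group was grown in the same medium with serum albumin, insulin, transferrin, selenite and ascorbic acid, so EGF was the difference between CYST and MAT, and collagen the difference between MAT and MAT + COL. The labels do not give the age of the animals or say which libraries share an animal, and p-values measure the spread between these libraries, which may be partly technical.

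ERBB proteins are receptor tyrosine kinases that pair at the cell surface when an EGF-family ligand binds. EGFR and ERBB4 bind ligand and signal, ERBB2 has no known ligand and serves as a partner, and ERBB3 has a weak kinase and signals through its partners. Signalling is limited by inhibitors that are themselves induced, by ubiquitination and uptake of the receptors, and is fed by metalloproteases that release the membrane-bound ligands. In glandular epithelia the family guides growth, branching and survival.

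The libraries held 6568968 to 17948600 counts in genes. The labels call the cells epithelial, and all 10 epithelial markers examined (among them EPCAM, CDH1 and KRT8) were above 1 TPM (a level scaled per gene length and per library) in every library. Their summed level was 18067 to 19473 TPM in CYST and 29047 to 45114 TPM in MAT. Most of it was KRT8 and KRT19, at 8884 and 8079 TPM in CYST replicate 1 and 17769 and 23887 in MAT replicate 1. Fibroblast markers were also present, so the cultures were not purely epithelial. Their sum was 2342 to 5048 TPM in CYST, 1257 to 3996 in MAT and 2308 to 4457 in MAT + COL, and it was highest in replicate 3 of every group. The ferritin gene FTH1 took 12.0% of the TPM of CYST replicate 3, against 3.59% and 3.41% in the other CYST libraries, 10.2% in MAT replicate 3 and 4.84% to 7.82% in the other libraries with EGF. In such bulk RNA, fewer cells of a type and less RNA per cell cannot be told apart.

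ERBB3 was the most abundant receptor transcript in every library. Its mean was 289 ± 91.0 TPM in CYST, 450.4 ± 63.0 in MAT and 453 ± 67.6 in MAT + COL (SD, n = 3). ERBB3 took 81.8% to 88.5% of the summed receptor TPM in single libraries, EGFR 4.47% to 11.6% and ERBB2 6.40% to 9.33%. The mix was alike across the groups, with a mean ERBB3 share of 84.5 ± 2.38% in CYST, 84.7 ± 3.40% in MAT and 85.2 ± 2.85% in MAT + COL. The summed receptor level was 340.6 ± 102 TPM in CYST, 530.2 ± 52.3 in MAT and 530.8 ± 63.9 in MAT + COL. The fourth receptor added almost nothing to it.

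**Figure D1:**
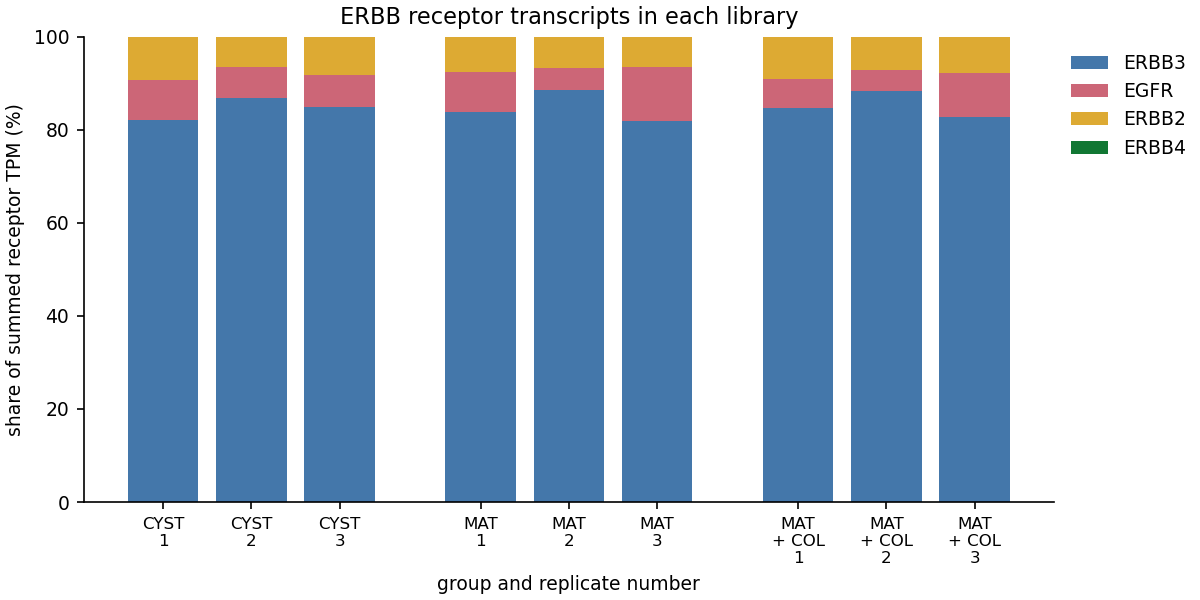
Share of each receptor in the summed receptor TPM (%, vertical axis) in each of the 9 libraries (horizontal axis, group and replicate number). ERBB3 fills 81.8% to 88.5% of each bar, and ERBB4 is too low to be seen.

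ERBB4 (ENSBTAG00000012647, chromosome 2, 99222774 to 100507400, minus strand) had 4 counts in all, 2 in replicate 2 of CYST and 2 in replicate 1 of MAT + COL. The other 7 libraries had 0 counts, MAT included in full. A count of 0 allows up to 3 counts (a one-sided 95% Poisson limit), equal to 0.0728 to 0.194 TPM depending on the library. In the same libraries ERBB3 lay at least 1709-fold to 7150-fold above that limit and EGFR at least 139-fold to 584-fold. ERBB4 fell below the filter on low counts and entered no test. Such limits and all count intervals cover counting error only.

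Ordered by mean TPM, the top of the list was the same in each group: ERBB3, then ERRFI1, ADAM10 and ADAM17. CBL and then ERBB4 closed it in each group. ERRFI1 and ADAM10 overlapped in every group and cannot be ranked against each other, whereas ERBB3 was clear of ERRFI1 in MAT and MAT + COL but overlapped it in CYST. ADAM10 was clear of ADAM17 in MAT and MAT + COL, not in CYST. The middle places were held by GRB2, LRIG1, ERBB2 and EGFR, and they changed order between groups. LRIG1 and GRB2 overlapped in CYST, at 54.1 ± 16.0 and 53.4 ± 16.2 TPM, and cannot be ranked there. In MAT, LRIG1 was at 35.2 ± 5.02 TPM, below GRB2 without overlap, while its range overlapped those of EGFR and ERBB2.

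**Figure D2:**
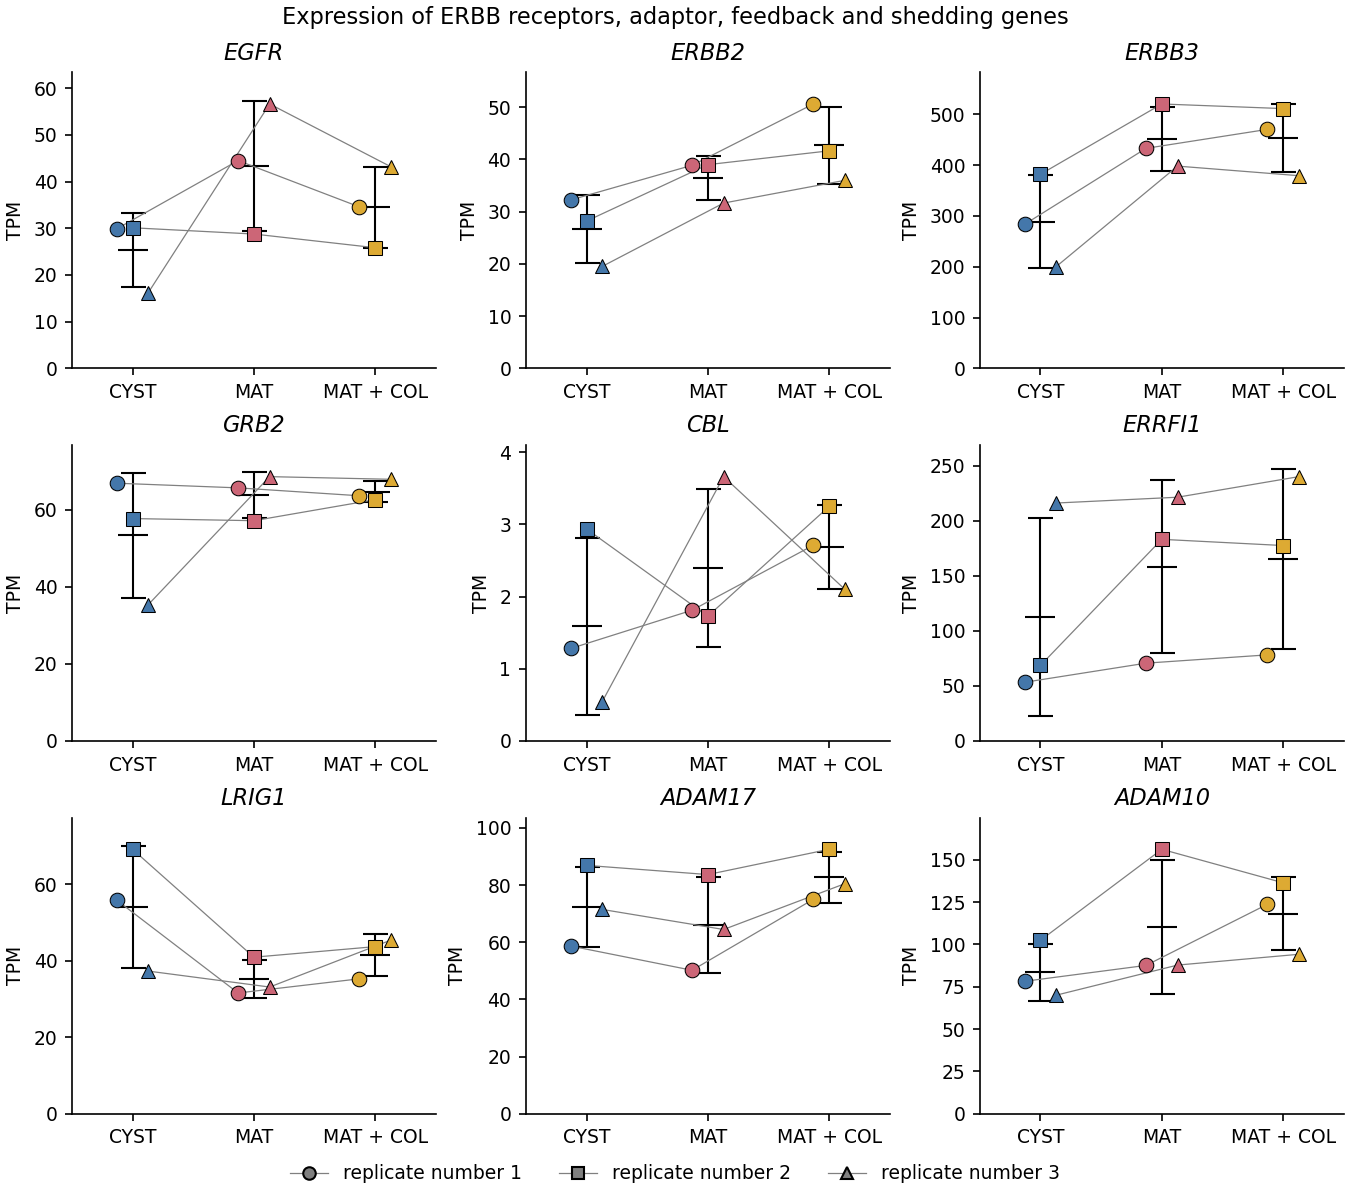
Level (TPM, linear axis from 0) of the 9 members above the count filter in CYST, MAT and MAT + COL. Symbols are single libraries by replicate number, joined across groups, and black bars are mean ± SD (n = 3). ERBB3 in the MAT libraries sits between 398 and 520.2 TPM, all above the CYST libraries, whereas the symbols of ERRFI1 keep the order of their replicate numbers in each group.

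The first comparison asked which of these genes differed with EGF. Without pairing of the libraries, 0 of the 9 members tested passed an adjusted p under 0.05 in MAT against CYST, where 1.79% of the 12074 genes tested did. The count at an unadjusted p under 0.05 was 4 of 9 (EGFR, ERBB2, ERBB3 and LRIG1), against 20.7% of all genes, and it was 4 of 9 with the block described next, against 28% of all genes. From deviations from the group means, the replicate numbers were taken to pair the libraries, which no label states. With the number as a block 1 of 9 members, ERBB3, passed, against 10.6% of all genes. The blocked share among the members was thus near that of all genes. The receptors with measurable expression and GRB2, CBL, ERRFI1 and ADAM10 had positive Log2FC values, and LRIG1 and ADAM17 negative ones. Their median Log2FC was 0.40, beside 0.01 over all genes tested.

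ERBB3 (ENSBTAG00000010444, chromosome 5, 57215784 to 57236737, minus strand) measured 284, 382 and 200.2 TPM in CYST replicates 1, 2 and 3. It measured 433, 520.2 and 398 TPM in MAT and 470.2, 511 and 379 TPM in MAT + COL. All 3 MAT libraries lay above all 3 CYST libraries, the only member for which TPM ranges of these groups did not overlap (23.7% of all genes tested did not). The Log2FC of MAT against CYST was 0.66 ± 0.21 (SE), a 1.58-fold difference, with an adjusted p of 0.132 by edgeR's quasi-likelihood test. With the replicate block it was 0.67 ± 0.16 and rose at an adjusted p of 0.0418, and DESeq2 without a block gave 0.0363. The difference was positive in 3 of 3 pairs, at 0.64, 0.55 and 0.82 on the log2 scale. Fits of 2 pairs alone, with 4 libraries each, gave a Log2FC of 0.61 with replicate numbers 1 and 2 (adjusted p = 0.0387, edgeR), 0.73 with 1 and 3 (0.127) and 0.73 with 2 and 3 (0.218).

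Epithelial markers moved with ERBB3. Of the 10 markers, 9 had a positive Log2FC in MAT against CYST with a median of 0.79, 0 passed without the block and 4 rose with it. The summed TPM of these markers, most of it from KRT8 and KRT19, did not overlap between CYST and MAT. Taken singly, CLDN4, KRT18 and GRHL2 overlapped in TPM and the other markers did not. The TPM ratio of ERBB3 to EPCAM, an epithelial surface glycoprotein, was 0.686, 0.849 and 0.507 in CYST and 0.648, 0.681 and 0.625 in MAT. The ratio to CDH1, the epithelial cadherin, was 0.814 to 0.823 in CYST and 0.813 to 0.916 in MAT. The ratio of ERBB3 to each of the 10 markers overlapped between CYST and MAT for 9. The exception was CLDN4, a claudin of tight junctions, for which it was 0.196 to 0.442 in CYST and 0.627 to 0.650 in MAT. All these ratios were chosen after the values were seen.

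Other marker lists also moved between MAT and CYST. All 7 proliferation markers (among them MKI67 and TOP2A) had a negative Log2FC, with a median of -1.44. Of these, 3 fell without the block and 5 with it, and their sum was 552 to 904 TPM in CYST and 211 to 411 in MAT. Of 10 fibroblast markers 8 had a negative Log2FC, with a median of -0.67, 0 passed without the block, and with it 1 rose and 2 fell. The 5 smooth muscle markers had a median of -0.91, with 0 calls without the block and 1 lower with it, and their sum was 149 to 188 TPM in CYST and 40.5 to 88.6 in MAT. Of the remaining lists, the median was -1.27 for 6 tested immune markers and -0.66 for 5 ciliated ones. It was 0.27 for 7 endothelial and 0.16 for 7 uterine gland markers. In these lists 0 passed without the block, and with it 1 uterine gland marker rose. The part of the shifts of all these lists in the values of the receptors was not tested.

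EGFR (ENSBTAG00000011628, chromosome 22, 905960 to 1121576, minus strand), the receptor that binds EGF, measured 29.9, 30.1 and 16.2 TPM in CYST. It measured 44.5, 28.8 and 56.6 TPM in MAT and 34.6, 25.8 and 43.2 TPM in MAT + COL. CYST and MAT overlapped in TPM, since MAT replicate 2 fell below CYST replicates 1 and 2. On CPM (counts scaled to library size with TMM normalization, the scale of the fit) the MAT range lay just above the CYST range. The Log2FC was 0.80 ± 0.30 (adjusted p = 0.180, edgeR), the largest value among the 9 members tested, and 0.75 with an adjusted p of 0.142 under the block. The pairs were uneven, at 0.60, 0.04 and 1.62 on the log2 scale. Without CYST or MAT libraries in turn, the value ran from 0.52 to 1.03. The TPM ratio of EGFR to EPCAM was 0.0411 to 0.0724 in CYST and 0.0377 to 0.0890 in MAT. Over the 10 epithelial markers the ratio overlapped between these groups for 9, and it was higher in MAT against KRT18, a keratin.

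ERBB2 (ENSBTAG00000021798, chromosome 19, 40072560 to 40096977, plus strand) measured 32.2, 28.2 and 19.5 TPM in CYST. It measured 38.9, 39.0 and 31.6 TPM in MAT and 50.6, 41.6 and 36.0 TPM in MAT + COL. MAT replicate 3 fell just below CYST replicate 1, so MAT and CYST overlapped, whereas every MAT + COL library lay above every CYST library. Its Log2FC in MAT against CYST was 0.46 ± 0.19 (adjusted p = 0.218, edgeR; 0.119 with the block). It was positive in 3 of 3 pairs. The ratio of ERBB2 to EPCAM was 0.0494 to 0.0780 in CYST and 0.0497 to 0.0582 in MAT. Over the 10 epithelial markers the ratio overlapped between these groups for 9, and it was lower in MAT against MUC1, a membrane mucin.

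GRB2 (ENSBTAG00000004736, chromosome 19, 56117227 to 56183324, plus strand) is the adaptor that links phosphorylated receptors to RAS activation. It measured 66.9, 57.7 and 35.4 TPM in CYST, 65.7, 57.2 and 68.6 TPM in MAT, and 63.7, 62.6 and 67.9 TPM in MAT + COL. CYST replicate 3 was low and the other 8 libraries lay between 57.2 and 68.6 TPM. GRB2 had a Log2FC of 0.28 in MAT against CYST with a 95% interval of -0.20 to 0.76 (adjusted p = 0.498, edgeR). The pair of replicate 1 differed by 0.0033 on the log2 scale, that of replicate 2 by 0.095 and that of replicate 3 by 0.78. Without CYST replicate 3 the Log2FC was 0.13.

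CBL (ENSBTAG00000006817, chromosome 15, 29785215 to 29879435, plus strand), the ligase that tags activated EGFR for uptake, was scarce, with 11 to 105 counts per library. It measured 1.28, 2.94 and 0.547 TPM in CYST, 1.81, 1.73 and 3.66 TPM in MAT, and 2.71, 3.25 and 2.10 TPM in MAT + COL. The ranges of all groups overlapped. The Log2FC of MAT against CYST was 0.66 with a 95% interval of -0.82 to 2.13 (adjusted p = 0.613, edgeR). It was 0.18 without MAT replicate 3 and 1.43 without CYST replicate 2. With the spread of 3 libraries a group, neither a large rise nor a moderate fall of CBL could be told apart from no difference. The 95% Poisson intervals of CYST replicates 2 and 3 did not overlap, at 2.36 to 3.61 and 0.273 to 0.978 TPM. Its paralog CBLC was far more abundant, as given with the related genes further on.

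ERRFI1 (ENSBTAG00000006609, chromosome 16, 45352254 to 45367336, plus strand) encodes MIG6, an inhibitor that binds the kinase domain of activated receptors and is itself induced by their signalling. It measured 53.3, 68.6 and 216 TPM in CYST, 70.7, 183 and 221 TPM in MAT, and 78.2, 177 and 239.9 TPM in MAT + COL. Replicate 1 was low and replicate 3 high in every group, and the groups overlapped over nearly their whole range. The Log2FC of MAT against CYST was 0.39 ± 0.66 (adjusted p = 0.796, edgeR). With the block its error fell to 0.30 and the value was 0.60 (adjusted p = 0.238). The pairs gave 0.44, 1.52 and -0.14 on the log2 scale, so the difference was carried mainly by replicate 2. The blocked Log2FC was 1.00 with replicate numbers 1 and 2 alone (adjusted p = 0.0315, edgeR), 0.73 with 2 and 3 (0.406) and 0.14 with 1 and 3 (0.832). Without the block it ran from 0.035 without MAT replicate 3 to 1.48 without CYST replicate 3.

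LRIG1 (ENSBTAG00000010360, chromosome 22, 34953195 to 35068404, plus strand) is a membrane protein that promotes degradation of ERBB receptors. It measured 55.8, 69.1 and 37.3 TPM in CYST, 31.6, 40.9 and 33.1 TPM in MAT, and 35.3, 43.7 and 45.4 TPM in MAT + COL. MAT replicate 2 lay above CYST replicate 3 in TPM, and on CPM all MAT libraries lay below all CYST libraries. Together with EGFR, ERBB2 and ERBB3 this made 4 members whose CPM ranges did not overlap between MAT and CYST, where 26.7% of all genes did not. The Log2FC was -0.60 ± 0.20 (adjusted p = 0.142, edgeR) and -0.60 with the block (adjusted p = 0.0634), negative in 3 of 3 pairs. LRIG1 overlaps SLC25A26 on the opposite strand, and since the strand setting of the counting is not given in the sources used here, reads of the shared stretch cannot be told apart.

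EGFR and LRIG1 had opposite signs, and their TPM ratio put the groups side by side. LRIG1 exceeded EGFR 1.87-fold to 2.30-fold in the CYST libraries. The ratio was 0.585 to 1.42 in MAT and 1.02 to 1.69 in MAT + COL. The CYST ratios lay above all 6 ratios of the cultures with EGF, a description of ratios picked after the values were seen.

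ADAM17 (ENSBTAG00000001141, chromosome 11, 87917519 to 87961977, plus strand) is the main sheddase of amphiregulin and transforming growth factor alpha. It measured 58.7, 86.9 and 71.5 TPM in CYST, 50.2, 83.7 and 64.4 TPM in MAT, and 75.0, 92.5 and 80.5 TPM in MAT + COL. Replicate 2 was the highest in each group. ADAM17 had a Log2FC of -0.14 in MAT against CYST with a 95% interval of -0.71 to 0.42 (adjusted p = 0.799, edgeR). Its 3′ end overlaps IAH1 on the opposite strand.

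ADAM10 (ENSBTAG00000005481, chromosome 10, 51535749 to 51680538, plus strand) sheds betacellulin, EGF and other membrane proteins. It measured 78.2, 102 and 70.0 TPM in CYST, 87.6, 156 and 87.8 TPM in MAT, and 124, 136 and 94.2 TPM in MAT + COL. Replicate 2 was the highest in each group here too, and CYST overlapped both groups with EGF. The Log2FC of MAT against CYST was 0.40 ± 0.26 (adjusted p = 0.428, edgeR), positive in 3 of 3 pairs, and it was 0.079 without MAT replicate 2. The ratio of ADAM10 to ADAM17 was 0.980 to 1.33 in CYST, 1.36 to 1.87 in MAT and 1.17 to 1.65 in MAT + COL. By the gene coordinates listed with the counts, ADAM10 overlaps LIPC on the opposite strand.

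**Figure D3:**
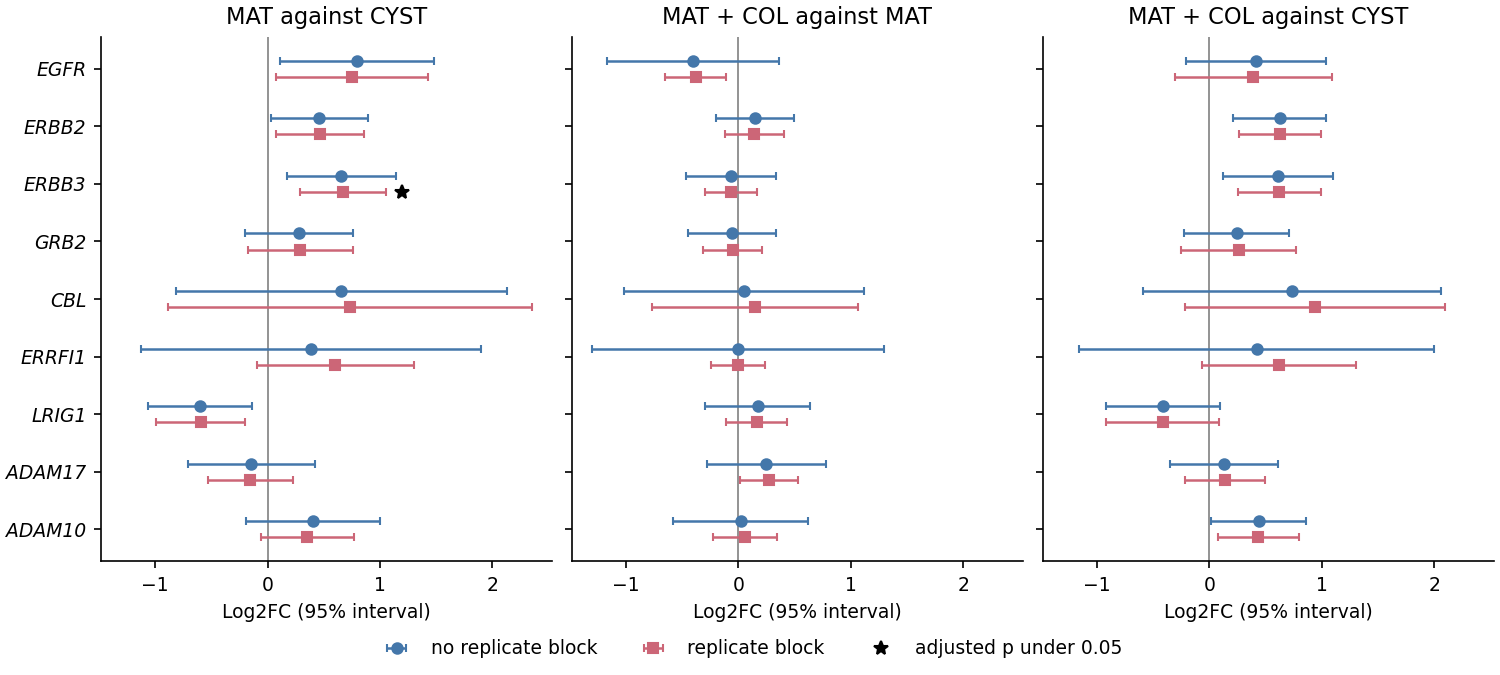
Log2FC with its 95% interval (horizontal axis) of the 9 members tested in the 3 comparisons, from edgeR without (circles) and with (squares) the replicate block. A star marks an adjusted p under 0.05, reached by ERBB3 in MAT against CYST with the block (0.0418). The blocked intervals of ERRFI1 are much narrower than the unblocked ones.

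The second comparison asked whether collagen changed these genes in the presence of EGF. Between MAT + COL and MAT, 0 of the 9 members passed an adjusted p under 0.05 by edgeR with or without the block, as did 0% of the 12470 genes tested. DESeq2 likewise called 0 genes. Members with an unadjusted p under 0.05 numbered 0 without the block, where 0.409% of genes had one, and 2 with it, where 4.96% did. No member had ranges that did not overlap, against 3.57% of all genes in TPM and 3.4% in CPM. The median Log2FC of the members was 0.02 and that of all genes -0.00054.

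The 2 members at an unadjusted p under 0.05 with the block were EGFR and ADAM17. EGFR was lower with collagen in 3 of 3 pairs, by 0.50, 0.19 and 0.45 on the log2 scale, which gave a blocked Log2FC of -0.38 ± 0.12 (unadjusted p = 0.0107, adjusted p = 0.955, edgeR). ADAM17 was higher in 3 of 3 pairs, with a blocked Log2FC of 0.27 ± 0.12 (unadjusted p = 0.0423, adjusted p = 0.955, edgeR). Neither passed the adjusted threshold, and both are given as values.

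For the rest, blocked 95% intervals are given gene by gene. They were not adjusted over the members and hold only if the replicate numbers pair the libraries. For ERRFI1 the blocked Log2FC was -0.0047 with a 95% interval of -0.24 to 0.23, against -1.30 to 1.30 without the block. For ERBB3 the blocked interval was -0.30 to 0.16, for ERBB2 -0.12 to 0.40 and for GRB2 -0.31 to 0.21. For LRIG1 it was -0.11 to 0.43 and for ADAM10 -0.23 to 0.34. None of these blocked intervals reached 1 on the log2 scale, whereas the unblocked interval of ERRFI1 did. Only CBL had a blocked interval that reached beyond 1 (-0.77 to 1.06).

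MAT + COL was also set against CYST, which joins EGF and collagen in 1 contrast and uses the same CYST libraries as the first comparison. Without the block 0 of 9 members passed, against 1.49% of the 12509 genes tested, and with the block again 0 of 9, against 5.26%. The count at an unadjusted p under 0.05 was 3 of 9 (ERBB2, ERBB3 and ADAM10), against 21.7% of all genes, and 3 of 9 with the block, against 26.3%. ERBB2 had a Log2FC of 0.63 ± 0.18 (adjusted p = 0.102, edgeR; 0.0639 with the block) and was positive in 3 of 3 pairs, and DESeq2 gave it an adjusted p of 0.0349. It was the only member with TPM ranges that did not overlap, against 24.7% of all genes. ERBB3 had a Log2FC of 0.61 ± 0.21 (adjusted p = 0.152, edgeR; 0.0652 with the block). ADAM10 followed at 0.44 (adjusted p = 0.220, edgeR), and on CPM its ranges did not overlap, nor did those of ERBB2 and ERBB3, against 27.7% of all genes. EGFR was at 0.42 (adjusted p = 0.415, edgeR) and LRIG1 at -0.41 (adjusted p = 0.318, edgeR).

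Members differed in how much of their spread over the 9 libraries followed the group and how much followed the replicate number. On log2 CPM, groups held 82.6% of the sum of squares of ERBB2 and 76.1% of that of ERBB3. Replicate numbers held 78.1% for ERRFI1 and 77.3% for ADAM17, and groups only 11.0% and 15.7%. ADAM10 was divided, with 38.5% between groups and 47.2% between replicate numbers. For LRIG1 the group share was 54.8% and for EGFR 44.9%. CBL and GRB2 followed neither closely, since their replicate shares were 9.28% and 3.98% and their group shares 34.9% and 38.0%. Over 12858 genes the median share was 29.9% for groups and 32.0% for replicate numbers.

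**Figure D4:**
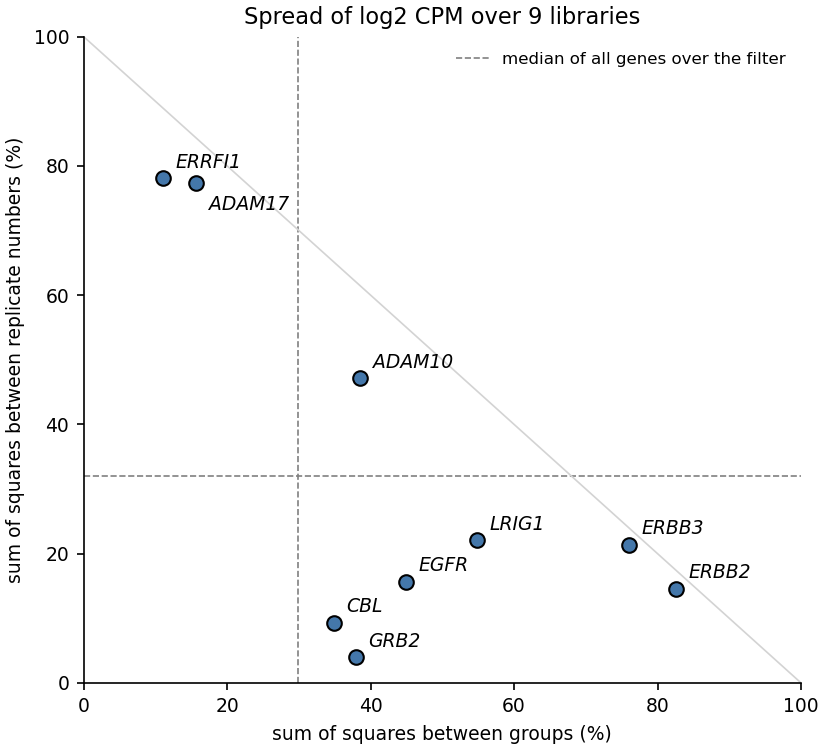
Share of the sum of squares of log2 CPM over 9 libraries that lay between groups (horizontal axis, %) and between replicate numbers (vertical axis, %) for the 9 members tested. The dashed lines are the medians over 12858 genes, 29.9% and 32.0%, and the diagonal is the sum of 100%. ERBB2 and ERBB3 sit at the right, ERRFI1 and ADAM17 at the upper left.

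Across the same 9 libraries some members moved together, given as a description since the points share groups and replicate numbers. Pearson's r of log2 CPM was 0.87 for EGFR with GRB2, 0.82 for ERBB2 with ERBB3 and 0.81 for ERBB3 with ADAM10. The lowest was -0.62 for ERBB2 with LRIG1. Among 12857 other genes, those closest to the pattern of EGFR were FAM83E (r = 0.98), MYH14 (0.98), LENG1 (0.96), NRP2 (0.96) and CCNYL1 (0.96). All 5 shared with EGFR a low CYST replicate 3 and a high MAT replicate 3. FAM83E was at 0.69 TPM in CYST replicate 3 and 5.58 TPM in MAT replicate 3, and CCNYL1 at 6.81 and 28.2 TPM.

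The wider ERBB pathway was read from lists by role, with 102 genes in the files. Of 11 ligand genes listed, 9 were in the files under the listed symbol and 5 passed the count filter. EGF, NRG1 and, among the shedding genes, ADAM8 were not matched by symbol and were not analysed here. NRG2 and NRG3 were listed at 0 in every library, NRG4 reached at most 0.0635 TPM and EPGN stayed under 1 TPM. NRG2 encodes a ligand of ERBB3 and ERBB4, and NRG3 and NRG4 encode ligands of ERBB4.

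AREG, amphiregulin, a ligand of EGFR, was called in MAT against CYST. It measured 15.3, 24.1 and 6.81 TPM in CYST, 90.6, 104 and 46.9 TPM in MAT, and 115, 82.4 and 42.3 TPM in MAT + COL. All 6 libraries with EGF lay above all CYST libraries. AREG rose with a Log2FC of 2.42 ± 0.43 (adjusted p = 0.0448, edgeR; 0.00173 with the block). The call without the block was lost, with a Log2FC of 2.19 to 2.86 and an adjusted p of 0.0877 to 0.166, when CYST replicate 1, CYST replicate 2, MAT replicate 1 or MAT replicate 2 was left out. It was 2.33 in MAT + COL against CYST (adjusted p = 0.0545, edgeR; 0.0163 with the block). With the block 2 further ligands rose in MAT against CYST, BTC (betacellulin, Log2FC 1.44 without and adjusted p 0.0243 with the block) and TGFA (1.22 and 0.0226), both named after their values were seen. That made 1 of 5 tested ligands without the block and 3 of 5 with it, beside 1.79% and 10.6% of all genes. EREG and HBEGF, other EGFR ligands, did not pass, with Log2FC values of -0.82 and 0.10.

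Among 22 tested genes of shedding and its control, 1 rose in MAT against CYST without the block and 2 with it, and 0 fell, beside 1.79% and 10.6% of all genes called. PRKCD, a protein kinase C that can stimulate shedding, measured 33.1, 25.9 and 20.4 TPM in CYST and 64.8, 51.0 and 63.0 TPM in MAT, with no overlap. Its Log2FC was 1.18 ± 0.21 (adjusted p = 0.0448, edgeR; 0.0131 with the block). The call without the block was lost when any of the 6 libraries was left out, with an adjusted p of 0.0635 to 0.145 and a Log2FC of 1.11 to 1.36. RHBDF1, an inactive rhomboid that carries ADAM17 to the surface, rose with the block alone (Log2FC 1.08, adjusted p = 0.284 without and 0.0262 with the block). It was named after its value was seen. The list's median Log2FC was 0.34.

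Among 32 tested genes of receptor down-regulation and trafficking, 0 passed without the block and 2 rose with it, beside the same 1.79% and 10.6% of all genes. CBLC, the epithelial paralog of CBL, lay well above the CBL levels in each library. It measured 25.9, 32.4 and 33.8 TPM in CYST and 65.9, 54.7 and 70.8 TPM in MAT. Its Log2FC was 1.03 ± 0.24 (adjusted p = 0.0716 without and 0.0235 with the block, edgeR). CD2AP, a scaffold that joins CBL to the endocytic machinery, had a Log2FC of 0.88 ± 0.20 (adjusted p = 0.0667 without and 0.0315 with the block, edgeR). The list's median was 0.15.

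Among 35 tested adaptors and transducers 0 passed in either fit, and their median Log2FC was 0.19. VAV2, a guanine nucleotide exchange factor, had a Log2FC of 1.23 (adjusted p = 0.132, edgeR). With collagen, 0 genes of the 4 lists passed in either fit. In MAT + COL against CYST 0 passed without the block, and AREG, CD2AP (adjusted p = 0.0365) and PRKCD (0.0400) rose with it by edgeR, where 5.26% of all genes passed.

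**Figure D5:**
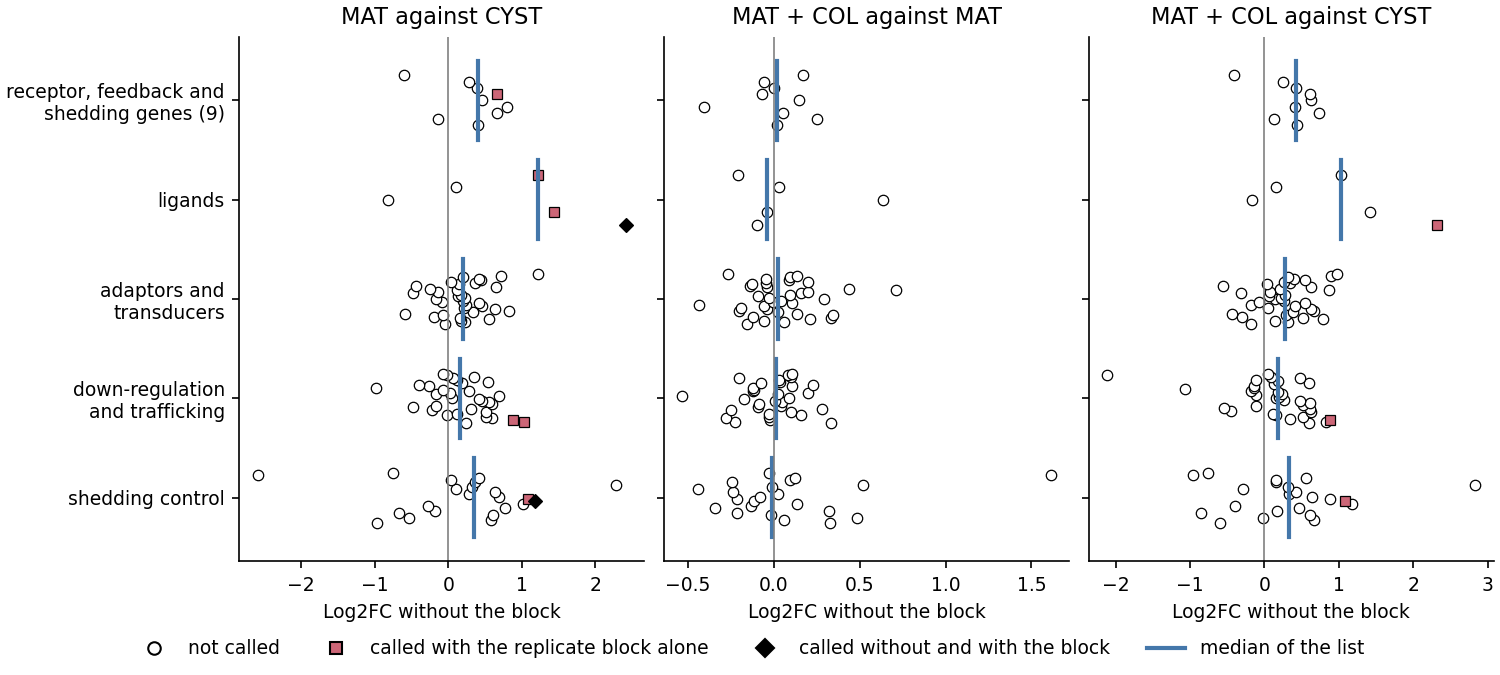
Log2FC without the block (horizontal axis, a range of its own in each panel) of the 9 members and of each pathway list in the 3 comparisons. Each symbol is a gene, and blue bars are list medians. Black diamonds passed an adjusted p under 0.05 without and with the block. Pink squares passed with the block alone, and white circles were not called. In MAT against CYST the medians run from 0.15 for down-regulation genes to 1.22 for the 5 ligands.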

How the data were processed

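Total RNA of 9 cultures was made into SMART-Seq HT PLUS libraries. Per the study's methods, the authors mapped trimmed reads in CLC Genomics Workbench with ARS-UCD2.0 as reference, and they deposited counts per gene and TPM. TPM compares genes per length, and counts were tested. The annotation release and strand setting are not given in the sources used here. Totals of 6568968 to 17948600 counts limit the counting precision for scarce genes such as CBL, apart from the spread between libraries.

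Groups came from the labels. Genes were filtered with filterByExpr (minimum count 10), TMM-normalized and tested with edgeR 4.0.16's quasi-likelihood test on the 6 libraries compared; p-values were adjusted over all genes tested (Benjamini-Hochberg) and called under 0.05. The edgeR fit without the block was tested on simulated unpaired counts, and the block, DESeq2 and limma fits were not. Alternatives were DESeq2 1.42.0 and limma 3.58.1 on log2(TPM + 1) and log2(TPM + 0.1), RLE size factors, no filter, all 9 libraries, counts downsampled to 6568968, each library left out and the replicate number as a block. Deviations of same-numbered libraries correlated at 0.329 to 0.437 (MAT and CYST), 0.471 to 0.687 (MAT + COL and MAT) and 0.278 to 0.350 (MAT + COL and CYST). Differently numbered libraries reached at most -0.070, 0.0855 and 0.111 in the same order. All same-number values exceed 0.1, but so does the 0.111 of CYST replicate 2 with MAT + COL replicate 1. On the same-number values the numbers, which come from the sample titles, were taken to pair the libraries. No label says what a number shares.

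Named were all 10 members, pathway genes called without the block (or the 2 with the smallest p of a list with none) and the 5 genes closest to EGFR over the 9 libraries; 1 gene this rule names is not reported here. Members and lists were chosen with earlier results of these data known. No sequence was read.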

Additional observations from a re-analysis of the deposited data

How the results depend on the processing

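Without pairing, 0 members passed in any comparison by edgeR, and leaving out each library in turn kept it at 0. Of the alternative Log2FC values of the 9 members over 3 comparisons, 440 kept their sign and side of the threshold, 15 passed it and 31 changed sign. In MAT against CYST, DESeq2 called 1 member (ERBB3), beside 1278 of all 12074 genes tested. The replicate block gave 1 (ERBB3), beside 1277 of 12074 genes. All 9 libraries with the block gave 2 (ERBB2, ERBB3), beside 2118 of 12858 genes. The block on replicate numbers 1 and 2 alone gave 3 (ERBB3, ERRFI1, LRIG1), beside 1867 of 12164 genes. In MAT + COL against CYST, DESeq2 called 1 member (ERBB2), beside 1524 of 12509 genes. All 9 libraries with the block gave 2 (ERBB2, ERBB3), beside 2035 of 12858 genes. Numbers 1 and 2 alone gave 5 (ERBB2, ERBB3, ERRFI1, LRIG1, ADAM10), beside 2406 of 12600 genes. The fits on 2 of the 3 replicate numbers were added after seeing the data. The replicate block changed no other member's call.

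All genes called in MAT against CYST numbered 216, and 1278 by DESeq2, 1277 with the replicate block, 580 with all 9 libraries and 2118 with both, 5 to 267 with 1 library left out (5 without CYST replicate 2, 7 without CYST replicate 1, 9 without MAT replicate 1, 32 without MAT replicate 2 and 122 without MAT replicate 3). With the block on numbers 2 and 3, 1 and 3, and 1 and 2 alone they were 36, 614 and 1867. Against CYST, MAT + COL had 186, and 1524, 658, 601 and 2035 in the same order, 3 to 186 with 1 library left out (3 without MAT + COL replicate 2, 4 without CYST replicate 2, 6 without MAT + COL replicate 1, 7 without CYST replicate 1 and 112 without CYST replicate 3), and 109 and 2406 with numbers 1 and 3 and 1 and 2 alone. Between MAT + COL and MAT they were 1 and 46 in those fits and otherwise 0. Genes at an unadjusted p under 0.05 numbered 636 and 995 in those fits, and 42 to 618 in the other fits outside the leave-outs. The cause was not tested. Of the genes called, 102 of 216 were higher in MAT than in CYST by edgeR and 131 of 218 by limma on log2(TPM + 1); in MAT + COL against CYST they were 84 of 186 and 114 of 184.

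Pathway genes called in MAT against CYST were 2, and 10 by DESeq2, 7 with the block, 7 with all 9 libraries, 20 with both, 1 on either TPM scale, 0 to 1 with 1 library left out, and 1 and 12 with the block on numbers 2 and 3 and 1 and 2. For MAT + COL against CYST they were 0, and 14, 3, 5 and 19 in that order, 1 without the filter, 1 after downsampling, 0 to 1 with 1 library left out, and 1, 1 and 11 with the block on pairs of numbers (2 and 3, 1 and 3, 1 and 2).

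Sign changes lay mostly in MAT + COL against MAT, where values were near 0. ERBB3 became 0.0079 on both TPM scales and ran from -0.17 to 0.045 with 1 library left out. GRB2 became 0.023 on log2(TPM + 1), 0.024 on log2(TPM + 0.1), -0.13 to 0.031 with 1 left out and 0.011 with numbers 2 and 3 alone. CBL became -0.22 after downsampling, -0.13 to 0.55 with 1 left out and -0.23 with numbers 1 and 3 alone. ERRFI1 became 0.00011 by DESeq2, 0.0072 without the filter, 0.072 on both TPM scales, -0.42 to 0.36 with 1 left out and 0.045 with numbers 1 and 3 alone. ADAM10 became -0.14 to 0.34 with 1 left out and -0.095 with numbers 2 and 3 alone. In MAT against CYST, CBL became -0.11 with numbers 1 and 2 alone and ADAM17 ran from -0.34 to 0.077 with 1 left out (0.077 without MAT replicate 1). In MAT + COL against CYST, EGFR became -0.017 with numbers 1 and 2 alone, ERRFI1 ran from -0.0060 to 1.51 (-0.0060 without MAT + COL replicate 3) and ADAM17 from -0.029 to 0.24 (-0.029 without CYST replicate 1). On CPM rather than per length, EGFR held 6.41% of receptor reads in CYST and ERBB2 6.12% in MAT. In MAT against CYST the 95% intervals of EGFR, CBL and ERRFI1 spanned over 1 on the log2 scale with and without the block. Those of ADAM10 and ADAM17 did so without it. With 3 libraries a group, the size of a difference was not resolved within these intervals.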
